A study of Mus musculus with 24 samples.

Results

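The genes of 4 growth factor families, the fibroblast growth factors (FGF), insulin-like growth factors (IGF), platelet-derived growth factors (PDGF) and vascular endothelial growth factors (VEGF), were followed in mouse dorsal root ganglia after crush of the sciatic nerve. Genes were taken by symbol, as the ligands, receptors and IGF binding proteins of these families, a set put together with earlier results of these data known. No measured value entered the rule. This gave 50 of the 38215 genes in the deposited tables, and 47 of the 26426 genes that passed the filter on low values. Fgf6, Fgf8 and Fgf16 did not pass it, at 0 to 0.00764 FPKM in any library. The fourth VEGF ligand, listed under its older symbol Figf, was not matched by symbol and is counted among the VEGF partners. Ganglia of 3 strains, labelled CAST, DBA and C57, were taken 5 days after the crush or from naive mice. Each of the 6 groups held 4 libraries, which the series design calls biological replicates, so that 24 libraries of total RNA were compared. The treatment protocol speaks of sham injury where the sample labels say naive, and whether naive mice had a sham operation is not settled by the labels. The labels give no age, sex or number of mice per library.

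FGFs signal through receptor tyrosine kinases with heparan sulfate as a cofactor, and most act on neighbouring cells. A few FGFs circulate as hormones, and the FGF homologous factors stay inside neurons and bind voltage-gated sodium channels. IGFs act through the type 1 IGF receptor and are carried and held back by binding proteins, while the type 2 receptor removes IGF2. PDGFs act mainly on fibroblasts and mural cells, and VEGFs on endothelium. Ganglia hold sensory neuron bodies, their glia, vessels, connective tissue and macrophages, and several of these cell types make or receive the factors.

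The values are FPKM, in which the kilobase term is the genomic span of the gene, introns included, so that levels of different genes were not compared. Library totals estimated from the values were 51.38 M to 145.47 M reads, with a median of 107.04 M reads, and replicate 3 of injured C57 was the shallowest. Sensory neuron markers fitted the label, with a summed level of 1086 to 1423 FPKM in injured libraries and 1344 to 1630 FPKM in naive libraries for 10 genes. All 10 macrophage markers were higher after crush in each strain, with summed levels of 39.8 to 50.9 FPKM in injured CAST, 34.2 to 38.0 FPKM in injured DBA and 27.4 to 32.4 FPKM in injured C57, against 4.61 to 7.33 FPKM over all naive libraries. Of 10 fibroblast markers, 7 in CAST, 8 in DBA and 5 in C57 were higher and 0 were lower. Of 10 sensory neuron markers, 8, 8 and 7 were lower and 1 was higher in each strain. Skeletal muscle markers reached 42.9 FPKM in 1 naive DBA library. No marker was at 0 in every library of a group. The part of these cell types in the results below was not tested, and in whole ganglia fewer cells of a type and less RNA per cell cannot be told apart.

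The promoters of 3 members are shown because the results turn on them. On the log2 scale of the test Fgf3 had the largest response to crush and Igfbp3 the largest difference in response between strains. Igf1 was the only member higher after crush in all 3 strains whose promoter window held a match to the AP-1 motif. Fgf15, also higher in all 3 strains, had no promoter window to search. Each window runs from 250 bases before to 50 bases after the RefSeq start of the gene (GRCm38.p6, 5′ to 3′ on the strand of the gene). Capitals mark the AP-1 match (TGANTCA, searched on both strands). The N of this pattern allowed any base, and in the Igf1 match it was A. The windows are Fgf3 at chr7:144838362-144838661 (plus strand), Igfbp3 at chr11:7213874-7214173 (minus strand) and Igf1 at chr10:87860861-87861160 (plus strand).
Fgf3: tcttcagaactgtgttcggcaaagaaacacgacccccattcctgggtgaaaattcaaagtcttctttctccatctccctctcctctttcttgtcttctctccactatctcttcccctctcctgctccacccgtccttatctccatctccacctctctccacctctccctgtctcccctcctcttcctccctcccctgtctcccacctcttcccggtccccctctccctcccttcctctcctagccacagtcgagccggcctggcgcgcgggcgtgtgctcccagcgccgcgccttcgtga
Igfbp3: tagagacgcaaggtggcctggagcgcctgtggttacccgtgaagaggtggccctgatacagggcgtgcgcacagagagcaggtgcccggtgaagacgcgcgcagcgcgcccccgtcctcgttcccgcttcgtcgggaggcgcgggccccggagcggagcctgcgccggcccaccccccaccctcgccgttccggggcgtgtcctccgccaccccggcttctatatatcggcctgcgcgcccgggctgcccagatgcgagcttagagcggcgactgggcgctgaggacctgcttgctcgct
Igf1: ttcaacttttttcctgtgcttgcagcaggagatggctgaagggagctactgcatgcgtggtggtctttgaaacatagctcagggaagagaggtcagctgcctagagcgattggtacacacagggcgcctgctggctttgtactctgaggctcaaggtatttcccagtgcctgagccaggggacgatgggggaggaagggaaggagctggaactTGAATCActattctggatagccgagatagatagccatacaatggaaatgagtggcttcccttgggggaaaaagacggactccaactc
The motif began at position 214 of the Igf1 window. RefSeq windows were found for 41 of the 50 members, 54 windows in all, and 4 members had an AP-1 match, namely Igf1, Igfbp2, Fgf12 and Fgf13. Of 32851 promoter windows of the genome, 7.8% held this motif. The cyclic AMP response element TGACGTCA was in the window of 1 member, Flt1, and in 1.8% of all windows. The Fgf3 and Igfbp3 windows held neither motif. A match is a run of letters and not a site shown to be bound.

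Crush changed most of these genes in every strain, in both directions. Of the 47 tested members, 18 were higher and 15 lower in injured CAST than in naive CAST ganglia, 20 higher and 11 lower in DBA, and 13 higher and 12 lower in C57, at an adjusted p under 0.05. Called in CAST were 70.2% of the members against 48.7% of all tested genes (26.5% higher and 22.1% lower), in DBA 66.0% against 51.7% (27.3% higher and 24.4% lower), and in C57 53.2% against 40.4% (19.4% higher and 21.1% lower). Crush moved a large part of the whole transcriptome, so these shares are read against a high background. The median log2 fold change of the members was 0.080 in CAST, 0.058 in DBA and 0.035 in C57, and that of all tested genes was 0.016, 0.013 and -0.002. In all 3 strains 12 members were higher (Fgf2, Fgf3, Fgf11, Fgf14, Fgf15, Fgf23, Fgfrl1, Igf1, Igfbp3, Igfbp7, Pdgfc and Pdgfra) and 10 were lower (Fgf1, Fgf9, Fgf12, Fgf13, Fgf18, Fgfr1, Igf1r, Pdgfd, Vegfa and Vegfb). The same held for 14.2% and 14.4% of all tested genes. No member was higher in a strain and lower in another, and 10 were called in none. The matching shares of all tested genes are not given, so these counts are not read as a trait of the families. Fold changes on the log2 scale are of estimated reads scaled by library total (RPM) plus 0.5, injured over naive, and understate the change of low genes. Ratios are of mean FPKM and carry no such offset.

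**Figure D1:**
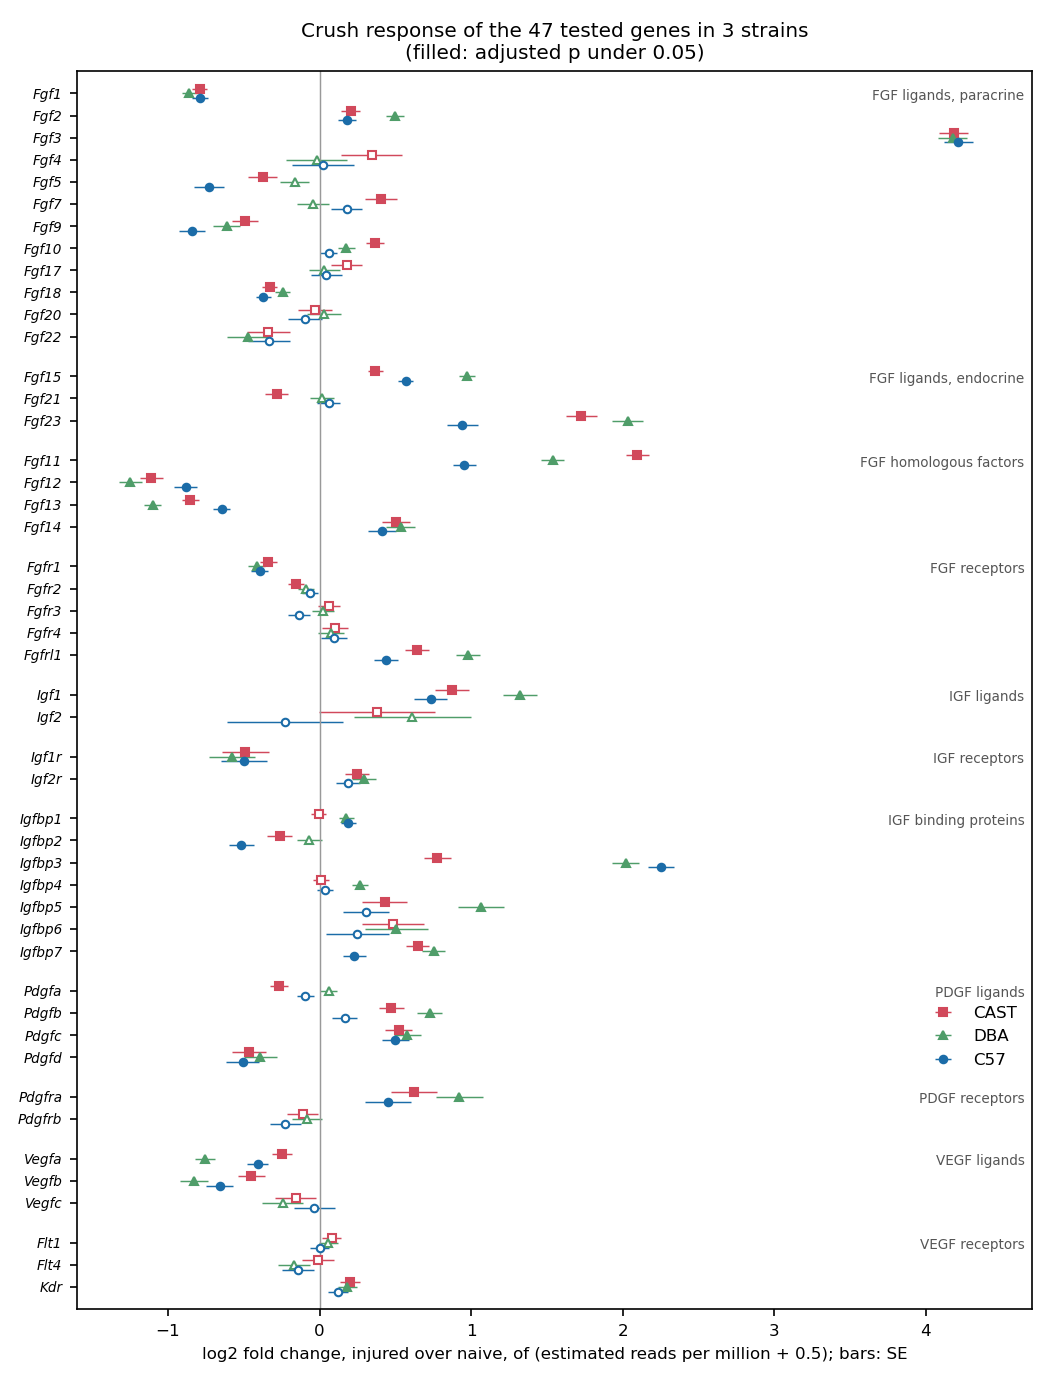
Log2 fold change of injured over naive ganglia for each of the 47 tested members, by role, with the standard error as bars and 1 symbol per strain (squares CAST, triangles DBA, circles C57; filled where the adjusted p was under 0.05). Fgf3 stands apart near 4.2 in all 3 strains on this scale, where its near-equal values depend on the offset. The FGF homologous factors split into 2 that rose and 2 that fell.

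Fgf3, a secreted FGF best known from inner ear development, was barely detected in naive ganglia and higher in every injured library. Its mean level was 45.3-fold higher in injured than in naive CAST ganglia, 31.9-fold higher in DBA and 54-fold higher in C57. In CAST, Fgf3 was at 2.13, 2.14, 2.8 and 2.04 FPKM in injured ganglia and 0.0615, 0.0459, 0.0485 and 0.0455 FPKM in naive ganglia. In DBA, Fgf3 was at 3.1, 2.91, 3.23 and 3.11 FPKM in injured ganglia and 0.089, 0.0839, 0.101 and 0.112 FPKM in naive ganglia. In C57, Fgf3 was at 2.5, 2.01, 2.02 and 1.89 FPKM in injured ganglia and 0.0467, 0.0206, 0.0361 and 0.0523 FPKM in naive ganglia. The lowest injured library lay far above the highest naive library in every strain. The log2 fold changes were 4.18 ± 0.096 in CAST, 4.18 ± 0.096 in DBA and 4.21 ± 0.096 in C57 (± SE; adjusted p = 3.46e-20, 2.16e-20 and 2.4e-20). The differences of this response between strains were -0.030 ± 0.14 for CAST minus C57, 0.008 ± 0.14 for CAST minus DBA and -0.038 ± 0.14 for DBA minus C57, none of them called (adjusted p = 0.934, 0.984 and 0.925). With naive levels this low, the near-equal responses depend on the offset. On other scales DBA minus C57 ran from -0.80 to 0.32, as given below. No annotated gene overlaps Fgf3.

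Of the 12 tested paracrine FGF ligands, which act on nearby cells, 4 rose and 4 fell in CAST, 3 rose and 4 fell in DBA, and 2 rose and 4 fell in C57. Fgf2, basic FGF, rose modestly. In CAST, Fgf2 was at 0.0255, 0.0234, 0.0232 and 0.0241 FPKM in injured ganglia and 0.0177, 0.0196, 0.0213 and 0.0206 FPKM in naive ganglia. In DBA, Fgf2 was at 0.0285, 0.0257, 0.0296 and 0.0279 FPKM in injured ganglia and 0.0175, 0.0186, 0.0166 and 0.0168 FPKM in naive ganglia. In C57, Fgf2 was at 0.0262, 0.0273, 0.0282 and 0.0283 FPKM in injured ganglia and 0.0201, 0.0253, 0.0252 and 0.0229 FPKM in naive ganglia. The groups did not overlap in any strain. On the log2 scale the changes were 0.20 ± 0.061 in CAST, 0.50 ± 0.061 in DBA and 0.18 ± 0.061 in C57 (adjusted p = 0.00694, 1.94e-07 and 0.0187), and the change in C57 was no longer called without replicate 1 of naive C57 (0.13, adjusted p = 0.0863). Fgf2 shares its locus with Nudt6, and reads of the overlap cannot be told apart.

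Fgf1 and Fgf9 fell. Fgf1, acidic FGF, is known from sensory neurons. In CAST, Fgf1 was at 1.4, 1.32, 1.2 and 1.36 FPKM in injured ganglia and 2.24, 2.34, 2.29 and 2.25 FPKM in naive ganglia. In DBA, Fgf1 was at 1.11, 1.17, 1.14 and 1.17 FPKM in injured ganglia and 2.1, 2.15, 2.03 and 2.04 FPKM in naive ganglia. In C57, Fgf1 was at 0.908, 1.02, 1.01 and 1.03 FPKM in injured ganglia and 1.64, 1.88, 1.74 and 1.61 FPKM in naive ganglia. Every injured library lay below every naive library of its strain. Its mean was 1.73-fold lower in injured than in naive CAST ganglia, 1.82-fold lower in DBA and 1.73-fold lower in C57, with log2 fold changes of -0.79 ± 0.051 in CAST, -0.86 ± 0.051 in DBA and -0.79 ± 0.051 in C57 (adjusted p = 4.37e-12, 7.82e-13 and 7.48e-12). Its span overlaps Arhgap26. Fgf9, once called glia-activating factor, showed the same direction. In CAST, Fgf9 was at 0.0739, 0.0724, 0.104 and 0.0955 FPKM in injured ganglia and 0.13, 0.126, 0.13 and 0.116 FPKM in naive ganglia. In DBA, Fgf9 was at 0.0849, 0.0994, 0.108 and 0.106 FPKM in injured ganglia and 0.165, 0.164, 0.144 and 0.16 FPKM in naive ganglia. In C57, Fgf9 was at 0.0629, 0.0633, 0.0706 and 0.0689 FPKM in injured ganglia and 0.121, 0.14, 0.132 and 0.122 FPKM in naive ganglia. The groups were again separate in each strain, and the log2 fold changes were -0.49 ± 0.087 in CAST, -0.61 ± 0.087 in DBA and -0.84 ± 0.087 in C57 (adjusted p = 4.2e-05, 1.91e-06 and 2.41e-08).

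Fgf18 fell to a smaller extent, with log2 fold changes of -0.33 ± 0.049 in CAST, -0.24 ± 0.049 in DBA and -0.37 ± 0.049 in C57 (adjusted p = 4.8e-06, 0.000194 and 1.24e-06). Fgf5, known for ending hair growth, was at 0.0687 to 0.1 FPKM in injured and 0.107 to 0.137 FPKM in naive CAST ganglia and fell in CAST and C57 (log2 fold changes -0.38 ± 0.096 and -0.73 ± 0.096). In DBA its change was -0.17 ± 0.096 and was not called. Fgf7 rose in CAST (0.41 ± 0.1) and Fgf10 in CAST and DBA (0.36 ± 0.057 and 0.18 ± 0.057), where Fgf10 stood at 0.00142 FPKM or less in every naive library. Fgf22 fell in DBA (-0.47 ± 0.14), and its span overlaps Rnf126. Fgf4, Fgf17 and Fgf20 were called in no strain, with log2 fold changes between -0.10 and 0.34.

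Among the 3 endocrine FGFs, Fgf23 and Fgf15 rose in every strain. Fgf23, the hormone from bone that lowers blood phosphate, was 11.6-fold higher in injured than in naive CAST ganglia, 13.4-fold higher in DBA and 4.2-fold higher in C57. In CAST, Fgf23 was at 0.199, 0.232, 0.182 and 0.154 FPKM in injured ganglia and 0.0226, 0.0185, 0.0152 and 0.0101 FPKM in naive ganglia. In DBA, Fgf23 was at 0.279, 0.271, 0.216 and 0.287 FPKM in injured ganglia and 0.0214, 0.0245, 0.0206 and 0.0124 FPKM in naive ganglia. In C57, Fgf23 was at 0.0767, 0.136, 0.0961 and 0.0981 FPKM in injured ganglia and 0.0306, 0.0194, 0.0228 and 0.024 FPKM in naive ganglia. These values correspond to 178 to 248 reads per library in injured CAST, 196 to 282 in injured DBA and 42 to 144 in injured C57, against 9 to 25 in naive libraries. Injured and naive libraries did not overlap. Fold changes on the log2 scale came to 1.73 ± 0.1 in CAST, 2.03 ± 0.1 in DBA and 0.94 ± 0.1 in C57 (adjusted p = 7.52e-13, 3.01e-14 and 5.15e-08). Fgf15, the mouse counterpart of human FGF19, which restrains bile acid synthesis, was at or near 0 without injury. In CAST, Fgf15 was at 0.0345, 0.036, 0.0473 and 0.0358 FPKM in injured ganglia and 0.00217, 0.00593, 0 and 0.00863 FPKM in naive ganglia. In DBA, Fgf15 was at 0.13, 0.122, 0.112 and 0.131 FPKM in injured ganglia and 0.00515, 0.0128, 0 and 0.0139 FPKM in naive ganglia. In C57, Fgf15 was at 0.0738, 0.0544, 0.044 and 0.0568 FPKM in injured ganglia and 0, 0, 0.00693 and 0 FPKM in naive ganglia. In reads per library these are 17 to 24 in injured CAST and 0 to 4 in naive CAST, 53 to 67 in injured DBA and 0 to 7 in naive DBA, and 10 to 35 in injured C57 and 0 to 3 in naive C57. The rise was called in each strain (adjusted p = 2.25e-06, 1.26e-13 and 3.92e-09), and a fold is not given because naive counts were so low. An antisense transcript overlaps Fgf15. Fgf21, a metabolic hormone, fell in CAST, at 0.272, 0.231, 0.248 and 0.178 FPKM in injured and 0.358, 0.282, 0.427 and 0.337 FPKM in naive ganglia (-0.28 ± 0.077, adjusted p = 0.00338). Its changes in DBA and C57 were 0.017 ± 0.077 and 0.060 ± 0.077.

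The 4 FGF homologous factors, which are not secreted, were all called in all 3 strains, 2 upward and 2 downward. Fgf11 rose in all 3 strains, 4.5-fold in CAST ganglia, 3.02-fold in those of DBA and 1.98-fold in those of C57. In CAST, Fgf11 was at 5.6, 5.83, 7.36 and 6.11 FPKM in injured ganglia and 1.36, 1.38, 1.29 and 1.5 FPKM in naive ganglia. In DBA, Fgf11 was at 4.11, 3.86, 3.87 and 4.19 FPKM in injured ganglia and 1.49, 1.4, 1.18 and 1.24 FPKM in naive ganglia. In C57, Fgf11 was at 3.52, 3.34, 3.54 and 3.4 FPKM in injured ganglia and 1.55, 1.87, 1.83 and 1.71 FPKM in naive ganglia. Every injured library lay above the naive range of its strain. The log2 fold changes were 2.10 ± 0.076 in CAST, 1.54 ± 0.076 in DBA and 0.95 ± 0.076 in C57 (adjusted p = 8.88e-17, 2.5e-14 and 3.04e-10). Fgf14, the factor mutated in a hereditary ataxia of humans, rose less. In CAST, Fgf14 was at 0.00511, 0.00446, 0.00512 and 0.0048 FPKM in injured ganglia and 0.00321, 0.00317, 0.00379 and 0.00278 FPKM in naive ganglia. In DBA, Fgf14 was at 0.00591, 0.0062, 0.00632 and 0.00584 FPKM in injured ganglia and 0.00335, 0.00373, 0.00473 and 0.00418 FPKM in naive ganglia. In C57, Fgf14 was at 0.00558, 0.00443, 0.00579 and 0.00443 FPKM in injured ganglia and 0.00371, 0.00374, 0.00387 and 0.00312 FPKM in naive ganglia. The groups were separate, with log2 fold changes of 0.51 ± 0.093 in CAST, 0.53 ± 0.093 in DBA and 0.41 ± 0.093 in C57 (adjusted p = 7.03e-05, 3.1e-05 and 0.000886).

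Fgf12 and Fgf13 fell. Both bind sodium channels of neurons, and Fgf13 also binds microtubules. In CAST, Fgf12 was at 0.326, 0.281, 0.292 and 0.334 FPKM in injured ganglia and 0.642, 0.681, 0.693 and 0.645 FPKM in naive ganglia. In DBA, Fgf12 was at 0.326, 0.345, 0.381 and 0.362 FPKM in injured ganglia and 0.806, 0.862, 0.843 and 0.85 FPKM in naive ganglia. In C57, Fgf12 was at 0.408, 0.519, 0.548 and 0.53 FPKM in injured ganglia and 0.91, 0.976, 0.961 and 0.835 FPKM in naive ganglia. Injured Fgf12 libraries were low in every strain. Its mean level was 2.16-fold lower in injured than in naive CAST ganglia, 2.38-fold lower in DBA and 1.84-fold lower in C57 (log2 fold changes -1.11 ± 0.075 in CAST, -1.25 ± 0.075 in DBA and -0.88 ± 0.075 in C57; adjusted p = 8.78e-12, 8.26e-13 and 8.98e-10). In CAST, Fgf13 was at 0.133, 0.126, 0.117 and 0.132 FPKM in injured ganglia and 0.234, 0.236, 0.231 and 0.221 FPKM in naive ganglia. In DBA, Fgf13 was at 0.1, 0.105, 0.102 and 0.103 FPKM in injured ganglia and 0.217, 0.224, 0.214 and 0.229 FPKM in naive ganglia. In C57, Fgf13 was at 0.143, 0.166, 0.175 and 0.163 FPKM in injured ganglia and 0.284, 0.25, 0.237 and 0.243 FPKM in naive ganglia. Fgf13 was likewise low in every injured library. The mean of Fgf13 was 1.81-fold, 2.16-fold and 1.57-fold lower after crush in CAST, DBA and C57 (log2 fold changes -0.85 ± 0.057 in CAST, -1.10 ± 0.057 in DBA and -0.65 ± 0.057 in C57; adjusted p = 8.06e-12, 6.12e-14 and 1.91e-09). Injured and naive libraries did not overlap for either gene. The sensory neuron markers fell alongside, with a median log2 fold change of -0.58 in CAST, -0.52 in DBA and -0.41 in C57 over 10 genes.

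**Figure D2:**
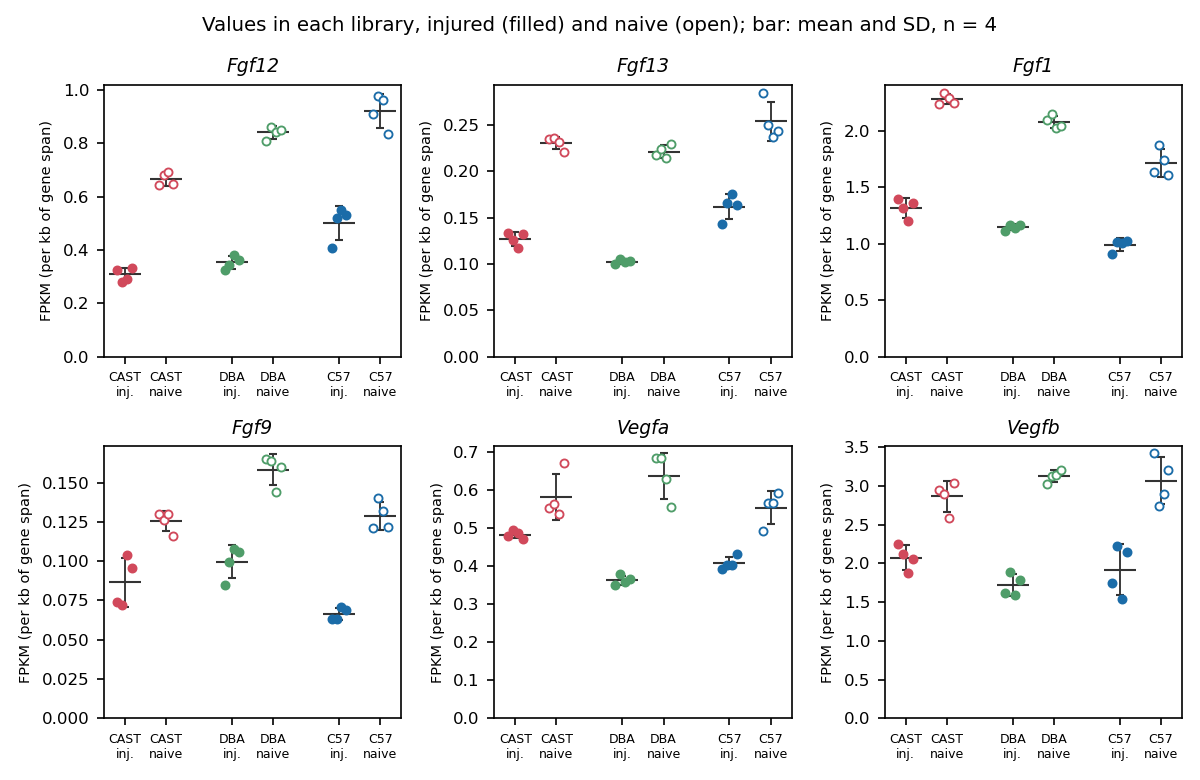
FPKM of 6 members that fell after crush, in each library by strain (filled: injured; open: naive), with mean and SD of 4 libraries. Injured libraries lie below naive libraries of their strain in every panel.

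Of the 5 FGF receptors, Fgfrl1 rose and Fgfr1 fell in all 3 strains. Fgfrl1, an FGF receptor without a kinase domain, rose in all 3 strains, 1.65-fold in CAST ganglia, 2.09-fold in those of DBA and 1.42-fold in those of C57. In CAST, Fgfrl1 was at 0.313, 0.31, 0.322 and 0.32 FPKM in injured ganglia and 0.186, 0.158, 0.194 and 0.228 FPKM in naive ganglia. In DBA, Fgfrl1 was at 0.542, 0.546, 0.531 and 0.588 FPKM in injured ganglia and 0.29, 0.277, 0.253 and 0.235 FPKM in naive ganglia. In C57, Fgfrl1 was at 0.3, 0.287, 0.233 and 0.264 FPKM in injured ganglia and 0.19, 0.192, 0.178 and 0.202 FPKM in naive ganglia. The groups were separate in each strain, with log2 fold changes of 0.64 ± 0.079 in CAST, 0.98 ± 0.079 in DBA and 0.44 ± 0.079 in C57 (adjusted p = 2.26e-07, 1.65e-10 and 7.22e-05). Fgfr1, the kinase receptor found in many neurons, fell by less than 1.5-fold. It was at 0.253 to 0.321 FPKM in injured and 0.358 to 0.387 FPKM in naive CAST ganglia, at 0.326 to 0.344 and 0.44 to 0.463 FPKM in injured and naive DBA, and at 0.317 to 0.355 and 0.412 to 0.459 FPKM in injured and naive C57. Its log2 fold changes were -0.34 ± 0.056 in CAST, -0.41 ± 0.056 in DBA and -0.39 ± 0.056 in C57 (adjusted p = 1.62e-05, 9.03e-07 and 3.11e-06). Fgfr2 was lower in CAST (-0.15 ± 0.052, adjusted p = 0.0174), and many genes lie within its annotated span. Fgfr3 and Fgfr4 were called in no strain, at -0.13 to 0.10.

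Igf1, the growth factor that macrophages, fibroblasts and other cells secrete, rose in all 3 strains, 2.47-fold in CAST ganglia, 3.58-fold in those of DBA and 2-fold in those of C57, while its receptor Igf1r fell. In CAST, Igf1 was at 0.0195, 0.0185, 0.0224 and 0.0231 FPKM in injured ganglia and 0.00759, 0.0086, 0.00857 and 0.00901 FPKM in naive ganglia. In DBA, Igf1 was at 0.033, 0.0282, 0.0318 and 0.033 FPKM in injured ganglia and 0.00917, 0.00783, 0.0107 and 0.00756 FPKM in naive ganglia. In C57, Igf1 was at 0.0237, 0.0186, 0.024 and 0.0226 FPKM in injured ganglia and 0.00789, 0.0159, 0.0129 and 0.00783 FPKM in naive ganglia. Each injured library lay above each naive library of its strain. On the log2 scale the changes were 0.88 ± 0.11 in CAST, 1.32 ± 0.11 in DBA and 0.73 ± 0.11 in C57 (adjusted p = 4.54e-07, 4.03e-10 and 9e-06). The antisense transcript Igf1os overlaps Igf1. All 10 macrophage markers and the fibroblast markers counted above were higher in the same libraries, and their part in the Igf1 values was not tested. Igf1r carries the signal of both IGFs. In CAST, Igf1r was at 0.071, 0.1, 0.0473 and 0.0582 FPKM in injured ganglia and 0.0911, 0.0934, 0.0984 and 0.0938 FPKM in naive ganglia. In DBA, Igf1r was at 0.0466, 0.0506, 0.0451 and 0.047 FPKM in injured ganglia and 0.0724, 0.0773, 0.0708 and 0.0659 FPKM in naive ganglia. In C57, Igf1r was at 0.0517, 0.0552, 0.0422 and 0.053 FPKM in injured ganglia and 0.0569, 0.0662, 0.0921 and 0.0765 FPKM in naive ganglia. The groups overlapped in CAST, where replicate 2 of the injured ganglia was above the naive range, and not in DBA or C57. Fold changes on the log2 scale came to -0.49 ± 0.15 in CAST, -0.58 ± 0.15 in DBA and -0.50 ± 0.15 in C57 (adjusted p = 0.0112, 0.00304 and 0.0119). The call was lost in CAST without replicate 3 of injured CAST (-0.33, adjusted p = 0.0606) and in C57 without replicate 3 of naive C57 (-0.38, adjusted p = 0.0589).

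Igf2r, the receptor that clears IGF2, rose in CAST and DBA (0.25 ± 0.08 and 0.29 ± 0.08; adjusted p = 0.0129 and 0.00319) and was at 0.19 ± 0.08 in C57 (adjusted p = 0.0661). The antisense transcript Airn overlaps it. Igf2, an imprinted growth factor, was called in no strain. In CAST, Igf2 was at 0.227, 0.283, 0.236 and 0.174 FPKM in injured ganglia and 0.15, 0.115, 0.184 and 0.241 FPKM in naive ganglia. In DBA, Igf2 was at 0.485, 0.381, 0.415 and 0.427 FPKM in injured ganglia and 0.211, 0.33, 0.463 and 0.153 FPKM in naive ganglia. In C57, Igf2 was at 0.329, 0.281, 0.483 and 0.33 FPKM in injured ganglia and 0.313, 0.715, 0.843 and 0.144 FPKM in naive ganglia. Its naive libraries spread widely, above all in C57, and the groups overlapped in each strain. The log2 fold changes were 0.38 ± 0.38 in CAST, 0.61 ± 0.38 in DBA and -0.23 ± 0.38 in C57 (adjusted p = 0.454, 0.198 and 0.685).

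Of the IGF binding proteins, 3 of 7 were higher and 1 lower in CAST, 6 higher and 0 lower in DBA, and 3 higher and 1 lower in C57. Igfbp3, the main carrier of IGFs in blood, rose in each strain, and on the log2 scale its change in DBA and C57 exceeded that of Igf1, whereas in CAST Igf1 changed more. In CAST, Igfbp3 was at 1.09, 1.1, 1.17 and 1.14 FPKM in injured ganglia and 0.609, 0.544, 0.665 and 0.708 FPKM in naive ganglia. In DBA, Igfbp3 was at 5.54, 4.93, 5.43 and 5.78 FPKM in injured ganglia and 1.27, 1.29, 1.43 and 1.17 FPKM in naive ganglia. In C57, Igfbp3 was at 4.47, 3.35, 4.06 and 3.34 FPKM in injured ganglia and 0.75, 0.786, 0.8 and 0.644 FPKM in naive ganglia. The mean was 1.78-fold higher in injured than in naive CAST ganglia, 4.2-fold in DBA ganglia and 5.11-fold in those of C57, with no overlap. Injured CAST libraries stayed below the lowest injured library of the other strains. On the log2 scale the changes were 0.78 ± 0.088 in CAST, 2.02 ± 0.088 in DBA and 2.25 ± 0.088 in C57 (adjusted p = 7.04e-08, 2.44e-15 and 5.64e-16). Igfbp7, a low-affinity member found in vessel walls, rose too. In CAST, Igfbp7 was at 0.63, 0.656, 0.656 and 0.578 FPKM in injured ganglia and 0.386, 0.397, 0.397 and 0.414 FPKM in naive ganglia. In DBA, Igfbp7 was at 0.654, 0.623, 0.6 and 0.579 FPKM in injured ganglia and 0.328, 0.333, 0.45 and 0.344 FPKM in naive ganglia. In C57, Igfbp7 was at 0.408, 0.391, 0.373 and 0.35 FPKM in injured ganglia and 0.322, 0.327, 0.353 and 0.292 FPKM in naive ganglia. The groups were separate in CAST and DBA and overlapped slightly in C57. Its log2 fold changes were 0.65 ± 0.077 in CAST, 0.75 ± 0.077 in DBA and 0.23 ± 0.077 in C57 (adjusted p = 1.37e-07, 1.01e-08 and 0.0191), and the call in C57 was lost without replicate 1 of injured C57 (0.20, adjusted p = 0.0692) or replicate 4 of naive C57 (0.18, adjusted p = 0.0793). The span of Igfbp7 overlaps Polr2b.

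Igfbp5, which binds IGFs at the cell surface and in the matrix, rose in DBA and CAST. In CAST, Igfbp5 was at 4.25, 4.96, 4.16 and 3.63 FPKM in injured ganglia and 3.05, 2.85, 3.22 and 3.4 FPKM in naive ganglia. In DBA, Igfbp5 was at 6.01, 5.01, 6.2 and 5.8 FPKM in injured ganglia and 2.57, 3.04, 3.47 and 2.04 FPKM in naive ganglia. In C57, Igfbp5 was at 3.25, 2.69, 3.64 and 3.52 FPKM in injured ganglia and 2.3, 3.34, 2.99 and 2.06 FPKM in naive ganglia. The groups were separate in CAST and DBA and overlapped in C57. Fold changes on the log2 scale came to 0.43 ± 0.15 in CAST, 1.06 ± 0.15 in DBA and 0.31 ± 0.15 in C57 (adjusted p = 0.0209, 2.74e-06 and 0.112). The call in CAST was lost without replicate 2 of injured CAST (0.35, adjusted p = 0.0761) or of naive CAST (0.39, adjusted p = 0.0601), and a call in C57 was gained without replicate 2 of naive C57 (0.42, adjusted p = 0.0316). Igfbp2 went the other way, with log2 fold changes of -0.26 ± 0.082 in CAST and -0.52 ± 0.082 in C57 (adjusted p = 0.00969 and 1.45e-05) and an uncalled -0.068 ± 0.082 in DBA. Igfbp4 rose in DBA (0.27 ± 0.051) and Igfbp6 in DBA (0.51 ± 0.21, adjusted p = 0.0448). Igfbp1 was at the detection limit, with 2 to 12 reads per library in injured DBA and 0 in every naive DBA library, 4 to 12 reads in injured C57 and 0 to 2 in naive C57, and 0 to 3 reads in injured CAST and 0 to 4 in naive CAST. It was called higher in DBA and C57 (adjusted p = 0.00394 and 0.00313).

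**Figure D3:**
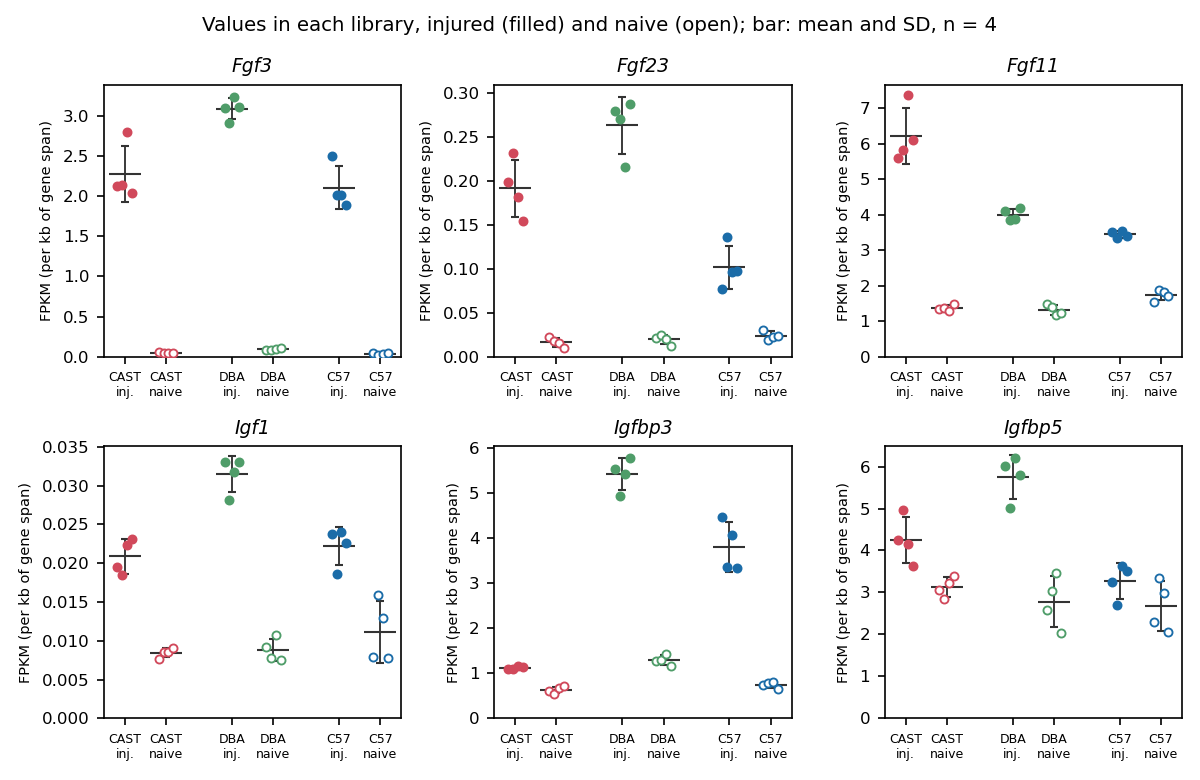
FPKM of 6 members that rose after crush, in each library by strain (filled: injured, open: naive), with mean and SD of 4 libraries. The rise of Igfbp5 was called in CAST and DBA and not in C57. Fgf3 is near 0 in all naive libraries, injured CAST is highest for Fgf11 and lowest for Igfbp3, and injured DBA is highest for Igf1 and Igfbp5.

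The PDGF ligands divided by member. Pdgfc and Pdgfd are secreted in a latent form that a protease opens, and Pdgfc rose while Pdgfd fell in all 3 strains. In CAST, Pdgfc was at 0.00938, 0.00801, 0.00922 and 0.00955 FPKM in injured ganglia and 0.00528, 0.00545, 0.00534 and 0.00562 FPKM in naive ganglia. In DBA, Pdgfc was at 0.0186, 0.0165, 0.0203 and 0.021 FPKM in injured ganglia and 0.0119, 0.0113, 0.0114 and 0.0127 FPKM in naive ganglia. In C57, Pdgfc was at 0.0116, 0.00945, 0.0136 and 0.00936 FPKM in injured ganglia and 0.00627, 0.00757, 0.00788 and 0.00595 FPKM in naive ganglia. Injured libraries lay above naive libraries in each strain. The log2 fold changes of Pdgfc were 0.52 ± 0.088 in CAST, 0.58 ± 0.088 in DBA and 0.50 ± 0.088 in C57 (adjusted p = 2.18e-05, 4.99e-06 and 5.4e-05). In CAST, Pdgfd was at 0.00413, 0.00511, 0.00414 and 0.00399 FPKM in injured ganglia and 0.00738, 0.00664, 0.0076 and 0.00599 FPKM in naive ganglia. In DBA, Pdgfd was at 0.0041, 0.00514, 0.00594 and 0.00511 FPKM in injured ganglia and 0.00698, 0.00643, 0.00823 and 0.00784 FPKM in naive ganglia. In C57, Pdgfd was at 0.0036, 0.00247, 0.00483 and 0.0036 FPKM in injured ganglia and 0.00552, 0.00693, 0.00731 and 0.00479 FPKM in naive ganglia. The Pdgfd groups overlapped in C57, where replicate 3 of the injured ganglia was just above the lowest naive library, and not in CAST or DBA. Its log2 fold changes were -0.47 ± 0.11 in CAST, -0.39 ± 0.11 in DBA and -0.51 ± 0.11 in C57 (adjusted p = 0.00103, 0.00445 and 0.000567), and its span overlaps Ddi1. Pdgfb, the ligand that recruits pericytes, rose in CAST and DBA, with 0.59 to 0.72 FPKM in injured and 0.384 to 0.54 FPKM in naive CAST ganglia and 0.481 to 0.556 FPKM in injured and 0.278 to 0.326 FPKM in naive DBA ganglia (0.47 ± 0.081 and 0.73 ± 0.081). In C57 its change was 0.17 ± 0.081 (adjusted p = 0.114). Pdgfa fell in CAST (-0.27 ± 0.058, adjusted p = 0.000469).

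Of the receptors, Pdgfra, a marker of fibroblast-lineage cells, rose, and Pdgfrb, which marks mural cells, was called in no strain (-0.11 ± 0.1 in CAST, -0.082 ± 0.1 in DBA and -0.23 ± 0.1 in C57). In CAST, Pdgfra was at 0.18, 0.166, 0.135 and 0.134 FPKM in injured ganglia and 0.0836, 0.0865, 0.101 and 0.113 FPKM in naive ganglia. In DBA, Pdgfra was at 0.212, 0.179, 0.216 and 0.21 FPKM in injured ganglia and 0.0885, 0.106, 0.141 and 0.0815 FPKM in naive ganglia. In C57, Pdgfra was at 0.144, 0.142, 0.174 and 0.153 FPKM in injured ganglia and 0.0859, 0.142, 0.132 and 0.0873 FPKM in naive ganglia. The groups did not overlap, although the second injured and the second naive library of C57 were close. The log2 fold changes were 0.62 ± 0.15 in CAST, 0.92 ± 0.15 in DBA and 0.45 ± 0.15 in C57 (adjusted p = 0.00154, 1.86e-05 and 0.0211). The call in C57 was lost without replicate 3 of injured C57 (0.39, adjusted p = 0.0667), replicate 1 of naive C57 (0.35, adjusted p = 0.0858) or replicate 4 of naive C57 (0.35, adjusted p = 0.0843). Summed fibroblast marker levels were 33.5 to 36.4 FPKM in injured and 14.2 to 19.2 FPKM in naive CAST, 41.2 to 46.8 FPKM in injured and 15.8 to 24.8 FPKM in naive DBA, and 21.3 to 27.4 FPKM in injured and 12.1 to 21.1 FPKM in naive C57, and their part in the Pdgfra values was not tested.

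Vegfa and Vegfb fell in all 3 strains. Vegfa is the main driver of vessel growth and permeability. In CAST, Vegfa was at 0.479, 0.495, 0.486 and 0.472 FPKM in injured ganglia and 0.554, 0.564, 0.536 and 0.671 FPKM in naive ganglia. In DBA, Vegfa was at 0.351, 0.378, 0.357 and 0.366 FPKM in injured ganglia and 0.683, 0.683, 0.63 and 0.555 FPKM in naive ganglia. In C57, Vegfa was at 0.393, 0.404, 0.404 and 0.432 FPKM in injured ganglia and 0.492, 0.565, 0.566 and 0.593 FPKM in naive ganglia. The groups were separate in each strain. Its mean was 1.2-fold lower in injured than in naive CAST ganglia, 1.76-fold lower in DBA and 1.36-fold lower in C57 (log2 fold changes -0.25 ± 0.067 in CAST, -0.76 ± 0.067 in DBA and -0.41 ± 0.067 in C57; adjusted p = 0.00379, 9.78e-10 and 2.36e-05). Vegfb, which binds Flt1, followed. In CAST, Vegfb was at 2.25, 2.12, 1.87 and 2.06 FPKM in injured ganglia and 2.95, 2.9, 2.58 and 3.04 FPKM in naive ganglia. In DBA, Vegfb was at 1.62, 1.89, 1.59 and 1.79 FPKM in injured ganglia and 3.02, 3.13, 3.14 and 3.21 FPKM in naive ganglia. In C57, Vegfb was at 1.75, 2.23, 1.54 and 2.15 FPKM in injured ganglia and 3.42, 2.74, 2.9 and 3.2 FPKM in naive ganglia. No injured library reached the naive range, and the log2 fold changes were -0.45 ± 0.09 in CAST, -0.83 ± 0.09 in DBA and -0.66 ± 0.09 in C57 (adjusted p = 0.000205, 3.3e-08 and 1.95e-06). Vegfc, the ligand of lymphatic endothelium, was called in no strain (-0.16 ± 0.14 in CAST, -0.24 ± 0.14 in DBA and -0.034 ± 0.14 in C57).

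Kdr, the main signalling receptor of Vegfa, was at 0.205 to 0.248 FPKM in injured and 0.171 to 0.203 FPKM in naive CAST ganglia, 0.211 to 0.238 and 0.183 to 0.215 FPKM in injured and naive DBA, and 0.145 to 0.164 and 0.141 to 0.148 FPKM in injured and naive C57. It rose in CAST and DBA by less than 1.5-fold (0.20 ± 0.064 and 0.18 ± 0.064; adjusted p = 0.0122 and 0.0205) and was not called in C57 (0.12 ± 0.064, adjusted p = 0.146). Flt1, which binds Vegfa and Vegfb, was at 0.080 ± 0.064 in CAST, 0.058 ± 0.064 in DBA and 0.001 ± 0.064 in C57, and Flt4, the receptor of Vegfc, at -0.008 ± 0.11 in CAST, -0.17 ± 0.11 in DBA and -0.14 ± 0.11 in C57, with no call. Of 10 endothelial markers, 4 in CAST, 3 in DBA and 0 in C57 were higher and 0, 0 and 1 were lower. Of all tested genes, 26.5%, 27.3% and 19.4% were higher. Summed endothelial levels were 12.3 to 14.1 FPKM in injured and 9.19 to 11.2 FPKM in naive CAST. Injured and naive sums overlapped in DBA (10.2 to 12.7 and 8.73 to 10.5 FPKM) and in C57 (8.44 to 12.9 and 7.73 to 10.7 FPKM).

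Over the 3 comparisons together, a difference between strains in the crush response was called for 21 of the 47 members. The matching share of all tested genes is not given, so this pooled count is not read against a background. It includes Fgf15, for which no difference is read, as explained below. For CAST minus C57, 4 members were higher and 2 lower (12.8% of the members were called, against 12.2% of all tested genes, 7.26% higher and 4.96% lower). For CAST minus DBA, 5 were higher and 7 lower (25.5% of the members against 14.3% of all genes, 7.68% higher and 6.63% lower). For DBA minus C57, 12 were higher and 3 lower (31.9% of the members against 9.08% of all genes, 4.81% higher and 4.28% lower). These 3 comparisons share groups, so their calls are not separate evidence. In the comparison of CAST with DBA the count was 7 to 10 when single libraries were left out.

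On the log2 scale of the test Igfbp3 differed most, whereas by ratios of means the gap of Fgf23 between DBA (13.4-fold) and C57 (4.2-fold) was wider than that of Igfbp3 between CAST (1.78-fold) and C57 (5.11-fold). The Igfbp3 response was weaker in CAST, at 0.78 ± 0.088, than in C57, at 2.25 ± 0.088 (difference -1.48 ± 0.12, adjusted p = 7.69e-09), and weaker than in DBA, at 2.02 ± 0.088 (difference -1.24 ± 0.12, adjusted p = 1.14e-07). For DBA minus C57 the difference was -0.23 ± 0.12 and was not called. Fgf11 ran the opposite way, with a stronger rise in CAST than in C57 (1.14 ± 0.11, adjusted p = 4.4e-08) and in DBA (0.56 ± 0.11, adjusted p = 0.000653), and a stronger rise in DBA than in C57 (0.58 ± 0.11, adjusted p = 0.000798). Fgf23 rose more in CAST and in DBA than in C57 (0.79 ± 0.14 and 1.09 ± 0.14; adjusted p = 0.000442 and 1.49e-05), and CAST minus DBA was -0.30 ± 0.14, not called. Each of these called differences remained called in every alternative setting and with every single library left out.

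Of the 15 members called between DBA and C57, all but Fgf5 and Igfbp2 moved further in DBA on the scale of the test. Fgf15 is counted as moving further in DBA, but no difference is read for it, as explained below. Igf1 rose more in DBA than in C57 (0.59 ± 0.16, adjusted p = 0.0179), as did Fgfrl1 (0.54 ± 0.11), Igfbp7 (0.52 ± 0.11), Pdgfb (0.56 ± 0.12), Fgf2 (0.32 ± 0.086) and Igfbp4 (0.23 ± 0.072). Igfbp5 also rose more in DBA (0.76 ± 0.21, adjusted p = 0.0257), a call lost in 7 of 16 fits that left out 1 library. Fgf13, Fgf12 and Vegfa fell further in DBA (-0.46 ± 0.081, -0.37 ± 0.11 and -0.35 ± 0.095). The Fgf12 difference was lost in 8 of 16 such fits and the Vegfa difference in 2. Fgf5 and Igfbp2 fell in C57 and were not called in DBA, with differences of 0.56 ± 0.14 and 0.45 ± 0.12 (adjusted p = 0.00878 and 0.0139). Summed fibroblast marker levels were also highest in injured DBA, as given above, and their part in these differences was not tested.

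Against DBA, Vegfa fell less in CAST (0.51 ± 0.095, adjusted p = 0.000437), and the rise of Fgf2 and the change of Pdgfa were lower in CAST (-0.29 ± 0.086 and -0.33 ± 0.083). For Fgf15 the difference was -0.60 ± 0.074 for CAST minus DBA (adjusted p = 2.32e-06) and 0.40 ± 0.074 for DBA minus C57 (adjusted p = 0.000758). Both rest on few reads, and on the voom scale the values were -0.91 (adjusted p = 0.535) and -0.83 (adjusted p = 0.692), so no difference between strains is read for Fgf15. For CAST minus DBA, 12 of 16 single omissions ended the call for Fgfrl1 (-0.33 ± 0.11) and for Igfbp5 (-0.63 ± 0.21), and 13 of 16 for Vegfb (0.38 ± 0.13) and for Fgf13 (0.25 ± 0.081). Fgf7 and Igfbp4 were called as well (0.45 ± 0.15 and -0.26 ± 0.072), and the span of Fgf7 overlaps Fam227b. For CAST minus C57 the remaining calls were Igfbp7 (0.42 ± 0.11), Fgf10 (0.30 ± 0.08) and Fgf21 (-0.34 ± 0.11, adjusted p = 0.038). How the response differences of Fgf5, Fgf7, Fgf10, Fgf21, Igfbp2, Igfbp4, Pdgfa and Pdgfb fared without single libraries is not given.

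**Figure D4:**
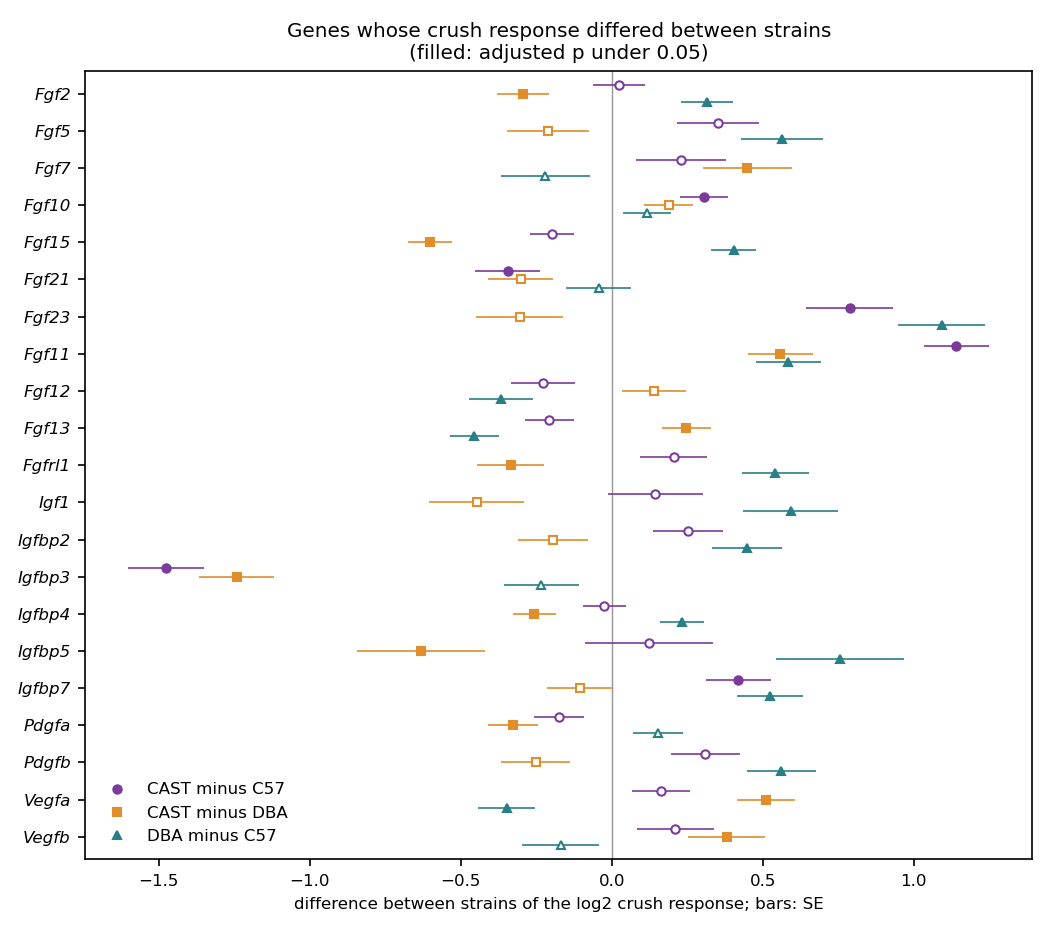
Differences between strains of the log2 crush response, with standard errors, for the 21 members called in at least 1 comparison (filled: adjusted p under 0.05). Igfbp3 lies near -1.5 and -1.2 for both comparisons of CAST, and Fgf11 and Fgf23 lie to the right for CAST minus C57.

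Naive ganglia of the strains differed as well. Of the 47 members, 12 were higher and 10 lower in naive CAST than in naive C57 (46.8% of the members were called, against 46.0% of all tested genes, 25.0% higher and 20.9% lower), 11 higher and 12 lower in naive CAST than in naive DBA (48.9% against 46.2%, 24.4% higher and 21.8% lower), and 11 higher and 5 lower in naive DBA than in naive C57 (34.0% against 22.7%, 12.1% higher and 10.6% lower). The shares against CAST were close to those of all genes. The submitters' processing notes name 1 genome build for all strains, and what sequence differences between strains add to these values was not tested.

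Fgf4, a secreted FGF of early embryos, had the largest naive difference on the log2 scale of the test. Ratios of means were larger for other members, among them Fgfr4, Fgf21, Igf2 and Fgf3. The annotated span of Fgf4 starts at 144847367 on chromosome 7, upstream of its RefSeq promoter window at 144861136 to 144861435. Where in this span its reads lie was not tested, and no Fgf4 value was low enough to check the span. Fgf4 was at 0.364, 0.349, 0.23 and 0.43 FPKM in naive CAST, 0.658, 0.75, 0.875 and 0.631 FPKM in naive DBA and 0.275, 0.264, 0.27 and 0.429 FPKM in naive C57. DBA was above all libraries of the other strains (CAST minus DBA -1.05 ± 0.2, adjusted p = 0.000195; DBA minus C57 1.18 ± 0.2, adjusted p = 0.000125). After crush Fgf4 was at 0.416, 0.671, 0.425 and 0.294 FPKM in CAST, 0.67, 0.838, 0.711 and 0.647 FPKM in DBA and 0.239, 0.314, 0.358 and 0.337 FPKM in C57, and its crush response was called in no strain (log2 fold changes 0.34 ± 0.2 in CAST, -0.018 ± 0.2 in DBA and 0.023 ± 0.2 in C57). In CAST the response was called without replicate 4 of the injured ganglia (0.52, adjusted p = 0.0363). Igf2 was lower in naive CAST than in naive C57 (-1.17 ± 0.38, adjusted p = 0.0173), but the libraries overlapped, and the call was lost without replicate 2 (-0.92, adjusted p = 0.0707) or replicate 3 of naive C57 (-0.84, adjusted p = 0.0777), or without replicate 2 of naive CAST (-1.02, adjusted p = 0.0566).

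Fgfr4 was 5.75-fold higher in naive CAST than in naive C57 and 4.5-fold higher than in naive DBA, with 0.0285, 0.0308, 0.0429 and 0.0437 FPKM in CAST, 0.00827, 0.0111, 0.00719 and 0.0059 FPKM in DBA and 0.00582, 0.00806, 0.00629 and 0.0052 FPKM in C57. Fgf21 was 3.56-fold higher in naive CAST and 2.6-fold higher in naive DBA than in naive C57. These ratios rest on few estimated reads. Fgfr4 had 9 to 13 per library in naive C57 and 10 to 19 in naive DBA, and Fgf21 had 9 to 23 in naive C57. Fgf3 was higher in naive DBA than in naive C57 (log2 difference 0.58, adjusted p = 5.58e-05). It was lower in naive CAST than in naive DBA (-0.44, adjusted p = 0.000538). On log2(FPKM + 1) neither Fgf3 difference was called (adjusted p = 0.396 and 0.402). Igfbp3 was 1.73-fold higher in naive DBA than in naive C57 and 2.04-fold lower in naive CAST than in naive DBA. Pdgfb was 1.75-fold lower in naive DBA than in naive C57, and Pdgfc 1.71-fold higher. Kdr was higher in naive CAST and naive DBA than in naive C57 (0.36 ± 0.064 and 0.41 ± 0.064; adjusted p = 6.43e-05 and 2.6e-05). These are differences of level between strains and not responses to injury. Markers of other cell types also differed between naive strains. All 5 tested adipocyte markers were higher in naive CAST than in naive DBA and than in naive C57 (median log2 differences 1.08 and 1.16), with summed levels of 4.49 to 11.7 FPKM in naive CAST, 0.599 to 3.76 FPKM in naive DBA and 0.491 to 2.39 FPKM in naive C57. Of 10 mural cell markers, 6 were higher and 1 lower in naive CAST than in naive C57, and 4 higher and 0 lower in naive DBA than in naive C57. Of 10 Schwann cell markers, 7 were higher and 0 lower in naive DBA than in naive C57, and 0 higher and 6 lower in naive CAST than in naive DBA. Their part in the naive differences of the growth factor genes was not tested.

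Partners of the families were read from lists chosen by role, and their counts stand against the 48.7% of all tested genes called in CAST, 51.7% in DBA and 40.4% in C57. The calls among receptor tyrosine kinase feedback genes in CAST, IGF partners in C57, and VEGF and angiopoietin partners in CAST and C57 lay near these shares and are not read as results about the lists. Of 15 FGF co-receptors and adaptors, 7 were higher and 4 lower after crush in CAST, 8 and 4 in DBA, and 7 and 3 in C57, with median log2 fold changes of 0.097, 0.156 and 0.035. Flrt3, a membrane protein that binds FGF receptors, was 13-fold higher in injured CAST, 22-fold higher in DBA and 11.1-fold in C57. Sdc1, a heparan sulfate proteoglycan, was 10.7-fold, 12.4-fold and 6.93-fold higher. Flrt2 was 1.6-fold, 2.29-fold and 1.57-fold higher, and Flrt1 was 2.25-fold, 2.36-fold and 1.69-fold lower. Of 13 tested feedback regulators and ETS targets of receptor tyrosine kinases, 0 were higher and 6 lower in CAST, 2 higher and 7 lower in DBA, and 0 higher and 9 lower in C57, with median log2 fold changes of -0.16, -0.27 and -0.34. Etv1, an ETS transcription factor, was 2.78-fold, 2.29-fold and 2.43-fold lower. Spry4, an inhibitor of the pathway, was 2-fold, 1.92-fold and 2.01-fold lower, Dusp5, a phosphatase of ERK, 1.69-fold, 2.21-fold and 1.8-fold, and Spred2 1.39-fold, 1.51-fold and 1.37-fold lower.

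Of 13 tested IGF partners, 7 were higher and 2 lower in CAST, 7 and 2 in DBA, and 5 and 1 in C57, with median log2 fold changes of 0.27, 0.33 and 0.015. Irs2, an adaptor of the insulin and IGF receptors, was 2.52-fold, 3.76-fold and 2.93-fold higher in CAST, DBA and C57. The proteases that cut IGF binding proteins rose as well, Pappa2 3.74-fold, 1.9-fold and 2.66-fold and Pappa 1.71-fold, 3.18-fold and 1.72-fold. Igf2bp2, an RNA-binding protein named after Igf2 mRNA, was 1.85-fold, 2.56-fold and 1.84-fold higher. Of 12 VEGF and angiopoietin partners, 3 were higher and 4 lower in CAST, 4 and 7 in DBA, and 1 and 3 in C57, with median log2 fold changes of -0.085, -0.26 and -0.12. Nrp2, a coreceptor of Vegfc and semaphorins, was 1.12-fold, 1.63-fold and 1.26-fold higher. Plxnd1, a semaphorin receptor, was 1.49-fold, 1.24-fold and 1.27-fold lower, and Angpt1, which steadies vessels, 1.41-fold, 1.85-fold and 1.35-fold lower.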

How the data were processed

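Total RNA of dorsal root ganglia was extracted with Trizol and sequenced, per the labels' protocols, and the submitters' processing notes name the aligner STAR 2.3.0 and the mouse build mm10. The sources used here do not name the counting program, its annotation or its use of strand, nor the age and sex of the mice. FPKM values were deposited by the authors for 38215 genes in 24 libraries. Multiplying each FPKM by the GENCODE M21 span of its gene, found for 95.3% of gene IDs, gave estimated reads: of values between 0.5 and 100 reads, 67.9% lay within 0.05 of a whole number, where chance gives 10.0%. The spans are therefore a recovery from the data and are wrong for some genes, among them Fgfr2. Among other members, 0 of 12 values of Fgf3 and 0 of 12 of Igf1 in that range lay near a whole number. For Fgf10 and Fgf21 it was 0 of 24 each, and for Fgfr3 and Fgfr4 3 of 24 each. The spans of these genes are not borne out, and their estimated reads are approximate. A wrong span leaves ratios of mean FPKM unchanged, but not log2 values with an offset. Library totals were 51.38 M to 145.47 M reads, of which 62.9% to 64.8% fell in genes.

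A gene was tested if 4 or more libraries held 10 or more estimated reads of it, on log2(estimated RPM + 0.5), RPM being reads scaled by library total, with limma 3.58.1 (trended, robust; statmod 1.5.0, R 4.3.3). One mean per group was fitted over all 24 libraries. The 9 contrasts were crush in each strain, the differences of the crush response between strains and the differences between naive strains, with Benjamini-Hochberg adjustment over all 26426 tested genes and a threshold of 0.05, 2-sided. The fit was also run on simulated counts with the same dispersion for every gene, unlike these data. The outcome is not given and lends no support to the calls. Values per library are given for members called in the same direction in all 3 strains with a ratio of means of at least 1.5 in a strain, for those whose response differed between strains by 1.5-fold or more, and for those whose naive levels differed by a log2 value of at least 1. Up to 4 genes of each partner list called in the same direction in all 3 strains are named by size. Members and lists were chosen with earlier results of these data known. SDs are over the libraries of a group, while standard errors come from the fit and share 1 estimate of the spread per gene over all 24 libraries. The labels do not say whether a library holds more than 1 mouse. Alternatives were other scales, filters, scalings, voom, fits of only the groups compared, and fits without libraries.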

Additional observations from a re-analysis of the deposited data

Results flagged for a closer look

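In 138 groups of 4 libraries, 8 had a library far from the other 3 by Dixon's test, and chance gives about 6.9. Fgf1 was at 0.908 FPKM in replicate 1 of injured C57, against 1.01 to 1.03 in the other injured C57 libraries. Fgf3 was at 2.8 FPKM in replicate 3 of injured CAST, against 2.04 to 2.14. Fgf15 was at 0.0473 FPKM in the same library, against 0.0345 to 0.036. Pdgfd was at 0.00511 FPKM in replicate 2 of injured CAST, against 0.00399 to 0.00414. Pdgfra was at 0.179 FPKM in replicate 2 of injured DBA, against 0.21 to 0.216. Of the naive groups, Fgf4 was at 0.429 FPKM in replicate 4 of naive C57, against 0.264 to 0.275 in the other naive C57 libraries. Fgf15 was at 0.00693 FPKM in replicate 3 of naive C57, with the others listed at 0. Igfbp7 was at 0.45 FPKM in replicate 3 of naive DBA, against 0.328 to 0.344.

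For 13 of the members given per library the crush response was called as different between strains, in 24 comparisons by the fit across all genes. The share of all tested genes called in each comparison is given above. For CAST minus C57, the differences of the log2 response were Fgf23 at 0.788 (adjusted p = 0.000442), Igfbp3 at -1.475 (adjusted p = 7.69e-09), Igfbp7 at 0.419 (adjusted p = 0.0106) and Fgf11 at 1.141 (adjusted p = 4.4e-08). For CAST minus DBA, the differences of the log2 response were Fgfrl1 at -0.334 (adjusted p = 0.0452), Igfbp3 at -1.242 (adjusted p = 1.14e-07), Vegfa at 0.511 (adjusted p = 0.000437), Vegfb at 0.380 (adjusted p = 0.0483), Igfbp5 at -0.633 (adjusted p = 0.0488), Fgf15 at -0.602 (adjusted p = 2.32e-06), Fgf13 at 0.247 (adjusted p = 0.0416), Fgf2 at -0.293 (adjusted p = 0.022) and Fgf11 at 0.558 (adjusted p = 0.000653). For DBA minus C57, the differences of the log2 response were Fgf23 at 1.093 (adjusted p = 1.49e-05), Fgfrl1 at 0.541 (adjusted p = 0.00226), Igf1 at 0.592 (adjusted p = 0.0179), Fgf12 at -0.367 (adjusted p = 0.0289), Vegfa at -0.348 (adjusted p = 0.0207), Igfbp5 at 0.757 (adjusted p = 0.0257), Fgf15 at 0.404 (adjusted p = 0.000758), Fgf13 at -0.455 (adjusted p = 0.00055), Igfbp7 at 0.524 (adjusted p = 0.00241), Fgf2 at 0.316 (adjusted p = 0.0198) and Fgf11 at 0.584 (adjusted p = 0.000798). As given above, the Fgf15 values rest on few reads and are not read as a difference between strains. For CAST minus DBA the calls of Fgfrl1, Vegfb, Igfbp5 and Fgf13 were lost in most fits without 1 library. The cause of these differences was not tested.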

How the results depend on the processing

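Of 2647 alternative values for 123 member results, 2429 kept direction and side of the threshold, 202 lost the call, 2 gained one and 14 changed sign, all 14 in Fgf4, Igf2 or Fgf15. Without single libraries, members called after crush numbered 31 to 35 in CAST, 29 to 31 in DBA and 23 to 27 in C57. For response differences the ranges were 5 to 8 (CAST minus C57), 7 to 10 (CAST minus DBA, against 12 with all libraries) and 12 to 15 (DBA minus C57). For naive strains they were 18 to 22 (CAST against C57), 19 to 22 (CAST against DBA) and 13 to 15 (DBA against C57). Without a filter the CAST minus DBA count was 7, and with a replicate block it was 7. The sign of Fgf15 turned for DBA minus C57 under voom (-0.83). The uncalled crush change of Fgf4 in C57 was -0.003 under voom, -0.085 without 3 libraries (replicate 3 of injured C57, replicate 1 of naive C57, replicate 3 of naive DBA) and -0.042 to 0.178 without single libraries. In DBA it was 0.071 without the 3 libraries and -0.093 to 0.071 without single ones. The uncalled change of Igf2 in C57 was -0.677 to 0.096 without single libraries. The cause was not tested. Fgf3 responses differed on log2(FPKM + 1) only among the scales tried, by -0.26 for CAST minus DBA (adjusted p = 0.0295) and 0.32 for DBA minus C57 (adjusted p = 0.0123). The uncalled DBA minus C57 value had the other sign with an offset of 0.1 RPM (-0.52, adjusted p = 0.135) and under voom (-0.80, adjusted p = 0.177). Replicate numbers did not pair the libraries (12 pairs, correlations -0.192 to 0.133, own number best in 4). The block ended 7 calls given in the report, among them the Fgf2 differences for CAST minus DBA and DBA minus C57 (adjusted p = 0.0639 each). The planned quasi-likelihood test was not run. Other scalings moved the median of all genes by less than 0.1. Depth limits Fgf15, Igfbp1 and Fgf10, which rest on few reads, and the naive comparisons of Fgfr4 and Fgf21.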

Other observations

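Fgf3, Fgf4 and Fgf15 lie next to each other on chromosome 7 (mm10, GENCODE M21), at 144838083 to 144844436, 144847367 to 144865243 and 144896531 to 144900953. Fgf3 and Fgf15 were higher after crush in all 3 strains, and Fgf4 between them was called in none. Igfbp2 and Igfbp5 lie side by side on chromosome 1, at 72824503 to 72852474 and 72857932 to 72874884, and in CAST Igfbp5 was higher and Igfbp2 lower after crush. Igfbp1 and Igfbp3 lie side by side on chromosome 11, at 7197782 to 7202546 and 7206086 to 7213923, and both were higher after crush in DBA and C57. In CAST, Igfbp3 was higher and Igfbp1 was not called.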
